A study of Mus musculus with 7 samples.

Results

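The 10 genes described here encode chaperones of the endoplasmic reticulum (ER) and the proteins that sense and answer protein folding stress in that organelle. They were chosen by name (Hspa5, Hsp90b1, Calr, Canx, Pdia4, Pdia6, Dnajb9, Xbp1, Ern1 and Atf6), and all 10 were found among the 53715 gene identifiers of the count table. All 10 passed the filter on low counts and were among the 15123 genes tested. The tissue was interscapular brown fat, which burns fuel to make heat, removed from C57BL/6J males at 10 weeks of age and frozen. The 3 wild-type libraries (WT) were set against 3 libraries from mice without PGAM5, a protein phosphatase of mitochondria (KO). The labels describe the knockout only as PGAM5 KO and give no treatment, and they list 4 KO mice, of which KO 4 was not analysed here.

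Proteins that enter the secretory pathway fold in the ER with the help of BiP (Hspa5), the ER form of HSP90 (Hsp90b1), the lectins calreticulin and calnexin (Calr, Canx) and disulfide isomerases (Pdia4, Pdia6). When unfolded proteins accumulate, IRE1 (Ern1) splices the Xbp1 mRNA so that it encodes an active transcription factor, ATF6 is cut in the Golgi to release another, and PERK (Eif2ak3) slows translation and raises ATF4. Brown adipocytes carry an extensive ER beside their mitochondria and lipid droplets, and the unfolded protein response is known to be engaged during thermogenic activation and lipid synthesis.

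None of the 10 genes differed between KO and WT past the threshold, an adjusted p of 0.05 in the edgeR quasi-likelihood test over all 15123 genes. Such a call was made for 0.0595% of all genes tested, 0.0198% higher and 0.0397% lower in KO, 9 genes in all. At an unadjusted p under 0.05 the count was also 0 of 10, against 11.8% of all genes (5.49% lower in KO), and it was 0 with DESeq2 and with limma-voom as well. In 0 of 10 genes did the KO libraries lie wholly above or wholly below the WT libraries, against 19.5% of all genes. Log2 fold changes (KO minus WT) were negative in 9 of 10 genes, against 50.2% of all genes, with a median of -0.15 against -0.0019 over all genes tested. Without WT 3, the library in which 7 of the 10 were highest, the median was -0.012. Leaving out 1 of the other libraries gave medians from -0.28 (without WT 1) to -0.10 (without KO 3). As WT 3 was picked for its high values, its removal was bound to bring the median nearer to 0.

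The labels were checked on the targeted gene. Pgam5 had 167, 122 and 186 counts in WT 1 to WT 3, against 1, 3 and 11 counts in KO 1 to KO 3 (log2 fold change -4.84, SE 0.59, edgeR adjusted p = 0.0243). Total counts ran from 18034204 to 33617762 per library, and genes of the mitochondrial genome took 19.7% (KO 3) to 43.0% (WT 2) of them. WT 2 and KO 3 took the 2 ends of the first principal component (-65.0 and 66.8), with the other 4 libraries from -13.0 to 8.23. The brown fat marker Ucp1 was present at 1638 to 5974 CPM (counts scaled to library size with TMM factors) in the 6 libraries, and all 12 brown adipocyte markers listed were tested. Tissue RNA mixes cell types, so fewer cells of a type and less RNA per cell cannot be told apart.

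Levels of different genes were compared per length, as CPM per kb of exon (GENCODE M21), averaged over the 6 libraries. Calr stood highest at 60.4 CPM per kb, followed by Hspa5 at 53.6, Canx at 40.1, Hsp90b1 at 34.1 and Dnajb9 at 27.1. Pdia6 (19.9), Xbp1 (19.8) and Pdia4 (11.4) came next, and the sensor genes Atf6 (5.39) and Ern1 (1.94) were lowest. The library values of neighbours in this order overlapped down to Xbp1. Pdia4, Atf6 and Ern1 each lay below every library value of the gene before it. In both genotypes the chaperone transcripts were more abundant per length than those of the sensors Atf6 and Ern1.

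**Figure D1:**
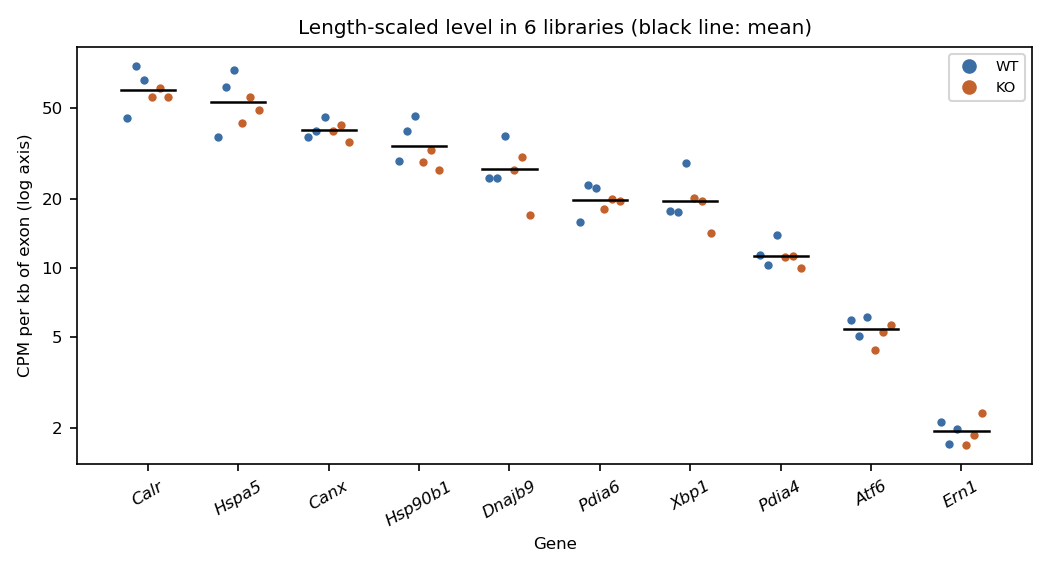
Level of each gene in CPM per kb of exon (log axis) in the 3 WT and 3 KO libraries, one point per library, with a black line at the mean of the 6. Calr and Hspa5 lead at 60.4 and 53.6, and Ern1 is lowest at 1.94.

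Cleaved ATF6 is known to act, together with NF-Y, through the ER stress response element (ERSE), and the promoters of the 10 genes were searched for it. Promoter windows of 300 bases came from RefSeq (GRCm38.p6), and 9 of the 10 genes had one (Atf6 was not matched). On both strands, the letters sought were CCAAT and CCACG with 9 bases of any kind between them. This pattern was found in 5 of 9 windows, those of Hspa5, Hsp90b1, Calr, Canx and Pdia6, against 0.119% of all 32851 windows in the table. Both the element and the genes were picked for their known part in ER stress. These shares are thus a description, and enrichment was not tested. Each window holds 250 bases before the RefSeq start of the transcript, and the rest of the window follows from that start. The RefSeq start is not always the 5′ end of the gene in GENCODE M21, which gave the positions printed for each gene here. It lies 120 bases inside the GENCODE gene for Hspa5, 65 for Hsp90b1, 44 for Pdia6, 3 for Calr and 258 for Dnajb9, and at the same base for Canx. The stretch upstream of both starts is shown for Hsp90b1 because it holds 2 matches, one on each strand. Capitals mark the fixed letters of the match, which read CGTGG and ATTGG where it lies on the other strand.
Hsp90b1 upstream stretch (chr10:86705510-86705694, minus strand): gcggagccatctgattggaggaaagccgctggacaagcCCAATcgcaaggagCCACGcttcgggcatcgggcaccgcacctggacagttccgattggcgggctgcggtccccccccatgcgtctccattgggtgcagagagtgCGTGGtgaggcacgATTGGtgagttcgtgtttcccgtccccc

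In Hsp90b1 the matches lie 212 to 194 and 107 to 89 bases before the RefSeq start, which is 147 to 129 and 42 to 24 bases before the GENCODE 5′ end. The Hspa5 match lies 65 to 47 bases before the RefSeq start but 55 to 73 bases inside the GENCODE gene, counted from its 5′ end. The matches in Hspa5 and the other 3 genes are shown to compare their spacers (lower case), each read 5′ to 3′ on the strand that holds it, with distances to the RefSeq start.
Hspa5 match, 65 to 47 bases before that start: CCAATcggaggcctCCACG
Calr match, 162 to 144 bases before that start: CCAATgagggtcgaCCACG
Canx match, 145 to 127 bases before that start: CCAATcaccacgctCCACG
Pdia6 match, 98 to 80 bases before that start: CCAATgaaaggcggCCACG
The spacers differ from each other in letters while the ends are the same by construction of the search. Windows of Pdia4, Xbp1, Ern1 and Dnajb9 did not hold these letters, nor did any of the 9 windows hold ERSE-II (ATTGG, any base, CCACG), TGACGTGG (a core of the XBP1-bound element) or a heat shock element (GAA, any 2 bases, TTC, any 2 bases, GAA). Shares of all windows were 0.0365%, 0.676% and 0.603% for these. A letter match is not evidence of binding. Counting all windows, 20 genes with an ERSE match were tested, the 5 named above among them. Of these 20, 0 were called by edgeR (0.0595% of all genes), 2 had an unadjusted p under 0.05 (11.8% of all genes), and the median log2 fold change was -0.11.

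Hspa5 encodes BiP, the HSP70 chaperone of the ER lumen that also holds the stress sensors inactive. It lies on chromosome 2 from 34771970 to 34777547 (mm10, ENSMUSG00000026864.13). Its level was 159, 263 and 311 CPM in WT 1 to WT 3, against 182, 237 and 208 CPM in KO 1 to KO 3. The lowest and the highest value were thus both WT, and all KO values lay between them. WT averaged 244 ± 77.6 CPM and KO 209 ± 27.4 CPM (SD, n = 3 each). On the log2 scale KO minus WT was -0.23 (SE 0.25, edgeR adjusted p = 0.708). The 95% interval of the KO to WT ratio ran from 0.581 to 1.26. Without WT 3 the log2 fold change was -0.015, and without WT 1 it was -0.46.

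Hsp90b1, which encodes the ER chaperone GRP94, had the log2 fold change farthest from 0 among the 10 genes. It lies on chromosome 10 from 86690209 to 86705509 (ENSMUSG00000020048.13). Its level was 118, 161 and 187 CPM in WT 1 to WT 3, against 117, 133 and 109 CPM in KO 1 to KO 3. WT 2 and WT 3 were above all KO libraries, whereas WT 1 lay within the KO range. Means were 155 ± 34.4 and 120 ± 12.3 CPM (SD, n = 3 each), with a log2 difference of -0.38 (SE 0.20, edgeR adjusted p = 0.469). The interval of the ratio, 0.563 to 1.05, included 1. With 1 library left out the log2 fold change ran from -0.54 (without WT 1) to -0.22 (without WT 3). An exon of the pseudogene 1810014B01Rik on the opposite strand overlaps Hsp90b1, with 1530 counts in all against 19581, and whether the counting used strand is not given in the sources used here.

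The lectin chaperones Calr and Canx hold newly made glycoproteins until they fold, calreticulin in the lumen and calnexin in the membrane. Calr (chromosome 8, 84841850 to 84846934) measured 131, 221 and 192 CPM in WT 1 to WT 3, against 161, 177 and 161 CPM in KO 1 to KO 3. Again the WT libraries spanned all KO values, and WT 2 rather than WT 3 was highest. The log2 fold change of Calr was -0.12 (SE 0.21, edgeR adjusted p = 0.812), and it was 0.041 without WT 2. Canx (chromosome 11, 50293961 to 50325673) measured 175, 188 and 215 CPM in WT 1 to WT 3, against 188, 198 and 167 CPM in KO 1 to KO 3. It varied little, with standard deviations of 20.3 CPM for WT and 15.9 CPM for KO libraries, and its log2 fold change of -0.066 (SE 0.17) had a ratio interval of 0.733 to 1.24. Without WT 3 it was 0.019.

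Pdia4 (ERp72) and Pdia6 (P5) encode disulfide isomerases, which make and rearrange disulfide bonds. Pdia4 (chromosome 6, 47796141 to 47813430) measured 27.4, 24.7 and 33.5 CPM in WT 1 to WT 3, against 26.8, 27.0 and 23.9 CPM in KO 1 to KO 3. WT 3 stood highest and the other 5 libraries lay from 23.9 to 27.4 CPM. For Pdia4, KO minus WT was -0.14 in log2 (SE 0.17, with an edgeR adjusted p of 0.732), and it was -0.0089 without WT 3. Pdia6 (chromosome 12, 17266545 to 17284770) measured 59.6, 86.8 and 83.6 CPM in WT 1 to WT 3, against 67.8, 74.9 and 73.6 CPM in KO 1 to KO 3. WT 2 and WT 3 were the highest libraries and WT 1 the lowest, and the log2 fold change was -0.089 (SE 0.18, edgeR adjusted p = 0.847). Without WT 2 it was 0.0082. Atp6v1c2 overlaps Pdia6 on the opposite strand with 486 counts in all, against 10361.

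Dnajb9 encodes ERdj4, a BiP cofactor whose transcription is known to depend on spliced XBP1. It lies on chromosome 12 from 44205559 to 44210326 (ENSMUSG00000014905.4). It measured 63.0, 63.1 and 96.9 CPM in WT 1 to WT 3, against 68.8, 78.5 and 43.6 CPM in KO 1 to KO 3. WT 3 was the highest library and KO 3 the lowest, while the other 4 lay from 63.0 to 78.5 CPM. The log2 fold change was -0.23 (SE 0.25, edgeR adjusted p = 0.713), and it was 0.012 without WT 3 and -0.015 without KO 3.

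Xbp1, the target of IRE1 splicing, lies on chromosome 11 from 5520659 to 5525893 (ENSMUSG00000020484.18). Counts per gene add its spliced and unspliced mRNA, so splicing itself cannot be read from them. It measured 58.1, 57.2 and 93.8 CPM in WT 1 to WT 3, against 65.8, 64.0 and 46.1 CPM in KO 1 to KO 3. As for Dnajb9, WT 3 was highest and KO 3 lowest. Its log2 fold change of -0.25 (SE 0.23, with an edgeR adjusted p of 0.648) had a ratio interval of 0.584 to 1.21, and it was 0.025 without WT 3.

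Of the sensors, Ern1 (chromosome 11, 106394650 to 106487852) measured 17.4, 13.9 and 16.2 CPM in WT 1 to WT 3, against 13.7, 15.2 and 18.9 CPM in KO 1 to KO 3. The groups overlapped over nearly their whole range, and the means were 15.8 ± 1.75 and 15.95 ± 2.67 CPM (SD, n = 3 each). Its log2 fold change of 0.0070 (SE 0.19, with an edgeR adjusted p of 0.990) was the only positive one of the 10, and it was -0.13 without KO 3. Atf6 (chromosome 1, 170704674 to 170867771) measured 54.5, 46.7 and 56.2 CPM in WT 1 to WT 3, against 40.6, 48.5 and 51.8 CPM in KO 1 to KO 3. KO 1 was its lowest library, and the log2 fold change was -0.16 (SE 0.16, edgeR adjusted p = 0.685), or -0.056 without KO 1. For both sensors, too, the intervals of the ratio included 1 (0.745 to 1.36 for Ern1, 0.694 to 1.15 for Atf6).

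**Figure D2:**
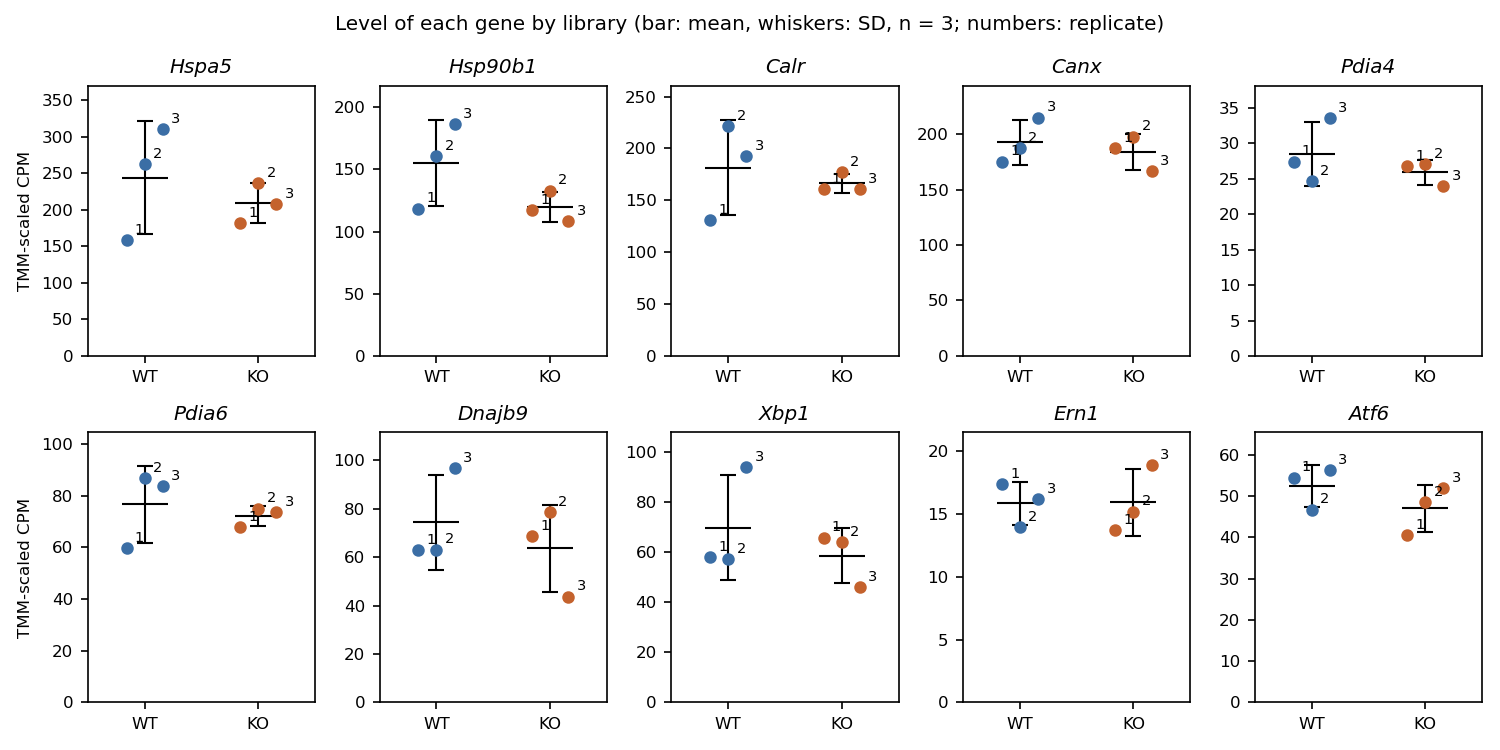
TMM-scaled CPM of the 10 genes in each library (numbered points, WT left, KO right), with the mean as a bar and the SD as whiskers (n = 3 each). The groups overlap in all 10 panels, and WT 3 is the highest library in 7 of them.

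The upper bound of the ratio interval was between 1.05 (Hsp90b1) and 1.36 (Ern1), and the lower bound between 0.563 (Hsp90b1) and 0.745 (Ern1). These intervals come from the standard errors of the edgeR fit and show how closely each ratio is known under it. That fit combines each gene's spread between 3 libraries a group with the spread over all genes tested. Each gene had at least 209 counts in every library.

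**Figure D3:**
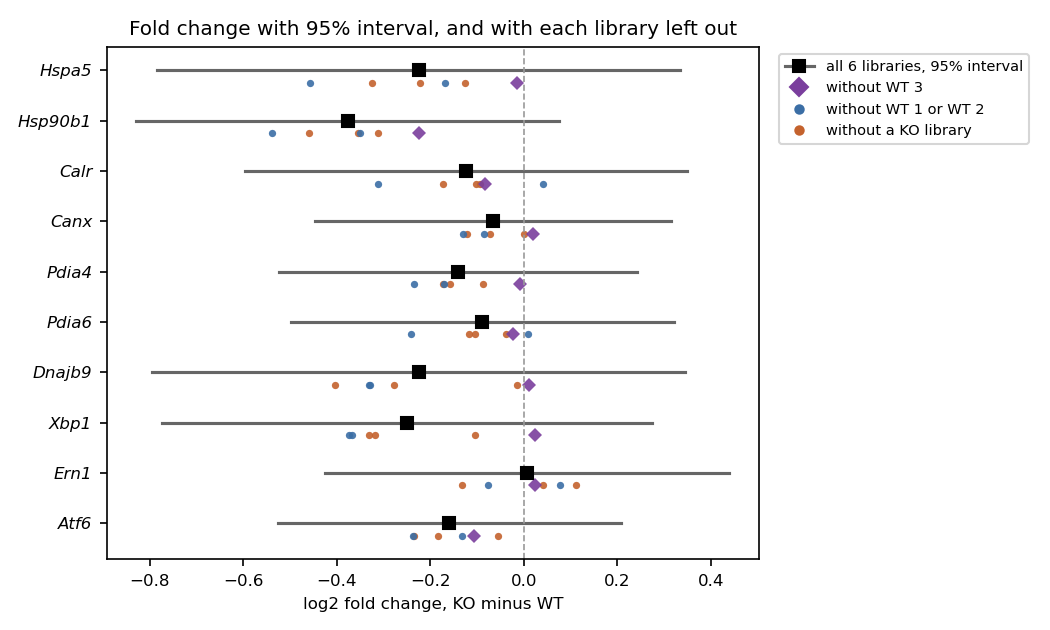
Log2 fold change (KO minus WT) of the 10 genes with all 6 libraries (squares, lines for the 95% interval), and below each the values with 1 library left out. All intervals include 0, and without WT 3 (diamonds) Hspa5 moves from -0.23 to -0.015 and Xbp1 from -0.25 to 0.025.

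WT 3 stood above the mean of the 6 libraries in 10 of 10 genes, on the log2 CPM scale, against 56.5% of the 8033 genes with a mean of at least 10 CPM. It was the highest library for 7 of 10, against 15.04% of those genes. Set against the mean of WT 1 and WT 2, it was higher by a median of 0.31 on the log2 scale, against 0.053 for those genes. Values were 0.70 for Xbp1, 0.62 for Dnajb9, 0.60 for Hspa5 and 0.44 for Hsp90b1, and 0.059 for Ern1. The genes of the cytosolic heat shock list, which encode chaperones outside the ER, stood higher still in WT 3. That list also holds Hspd1 and Hspe1, whose products are chaperones of mitochondria. All 12 of that list were highest in WT 3, by a median of 1.62 on the same scale. Hspa1b, an inducible HSP70 gene whose reads can be shared with its near-identical copy Hspa1a, reached 118 CPM in WT 3 and 1.08 to 3.84 CPM in the other 5 libraries. Summed levels of 10 skeletal muscle markers were 8.73, 10.2 and 46.1 CPM in WT 1 to WT 3, against 1.96, 39.3 and 3.81 CPM in KO 1 to KO 3, so that WT 3 and KO 2 were high. The part of heat shock genes or muscle RNA in the levels of the ER genes was not tested.

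The 10 genes did not vary as 1 block. Hspa5, Pdia6, Calr and Hsp90b1 had WT 2 and WT 3 as their highest libraries. Dnajb9, Xbp1, Pdia4 and Canx were highest in WT 3 and lowest in KO 3, and so was Hsp90b1, which thus had both traits. Over the 6 libraries the log2 CPM of Hspa5 had a Pearson r of 0.94 with Pdia6, 0.87 with Calr, 0.87 with Hsp90b1 and 0.73 with Canx. With Xbp1, Dnajb9 and Pdia4 it was 0.55, 0.51 and 0.43, and with Atf6 and Ern1 0.25 and -0.20. Spearman's rho was 0.94 for Pdia6 and Calr, 0.77 for Hsp90b1 and Canx, and 0.26 for Xbp1. Without WT 1 and WT 3, the libraries farthest from the median of Hspa5, r was 0.94 for Pdia6, 0.88 for Calr and 0.84 for Hsp90b1. It was then 0.31 for Canx, 0.17 for Dnajb9, -0.079 for Xbp1, -0.25 for Pdia4, 0.47 for Atf6 and -0.12 for Ern1. Of the other genes, r was 0.95 between Xbp1 and Dnajb9 and 0.95 between Xbp1 and Pdia4. Hsp90b1 had an r of 0.83 with Canx, 0.75 with Pdia6, 0.75 with Xbp1, 0.74 with Calr, 0.73 with Dnajb9 and 0.65 with Pdia4. Within the 10 genes and over all 6 libraries, the 4 with the highest r were those that share the ERSE letters with Hspa5. Without WT 1 and WT 3, however, the r of Canx was below that of Atf6. Genes outside the 10 had r up to 0.99 with Hspa5. Edem2 (0.98) was one of them, and it was not among the listed genes with an ERSE match. A link between the ERSE letters and r was not tested. These r values describe 6 libraries whose genes share scaling factors, and they mix both genotypes.

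**Figure D4:**
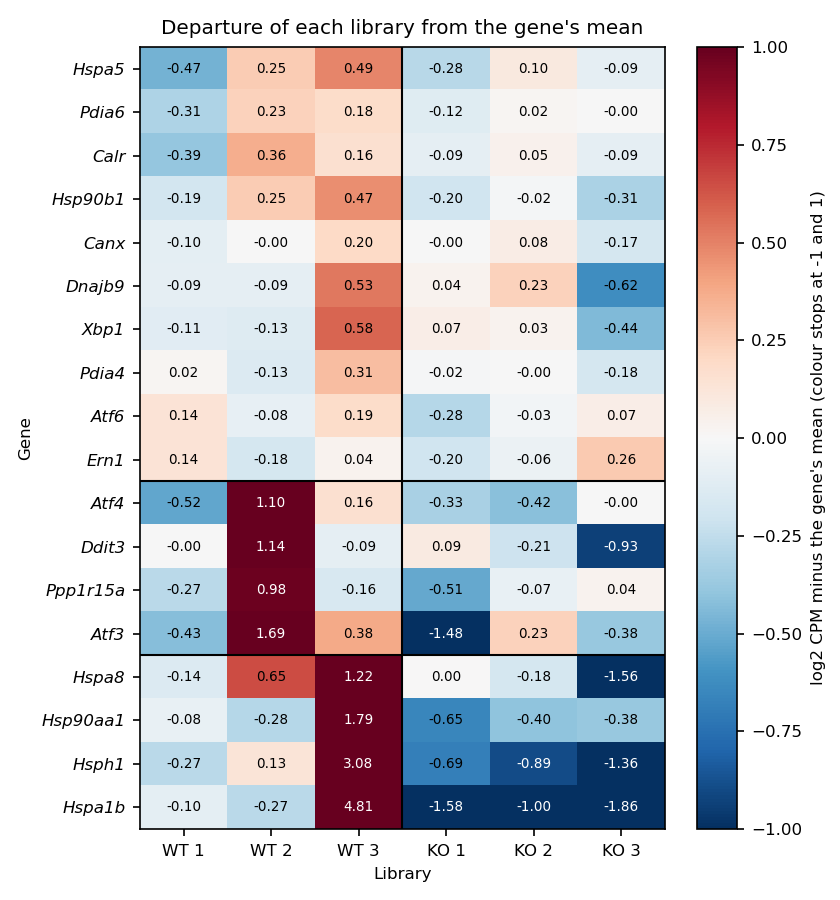
Log2 CPM of each library minus the gene's mean over 6 libraries, with the colour ending at -1 and 1. Rows are the 10 genes (top), 4 of the 10 PERK branch genes (middle) and 4 of the 12 genes of the cytosolic heat shock list (bottom). Both sets of 4 were chosen after their values were seen. WT 3 is above the mean in all 10 ER genes, WT 2 stands at 0.98 to 1.69 in the 4 PERK branch genes drawn, and Hspa1b reaches 4.81 in WT 3.

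The rest of the ER machinery was described by 7 lists holding 105 genes, of which 103 were tested. Again 0 were called by edgeR (0.0595% of all genes) and 0 by DESeq2 (0.983% of all genes it adjusted). At an unadjusted p under 0.05 there were 6 in edgeR (5.83%, against 11.8% of all genes) and 7 in DESeq2 (against 7.06%). Groups that did not overlap were found in 18 of the 103, 15 lower and 3 higher in KO, against 9.39% and 10.1% of all genes.

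Other ER chaperones and folding enzymes had a median log2 fold change of -0.17, with 18 of 24 negative. The calcium-binding protein gene Calu averaged 201 ± 19.3 CPM over WT libraries, against 171 ± 12.3 CPM over KO libraries (SD, n = 3 each), log2 -0.23 (SE 0.17), or -0.15 without WT 3. Serpinh1, the collagen chaperone HSP47, reached 271 CPM in WT 3 and 118 to 190 CPM elsewhere, log2 -0.10 (SE 0.31), and its log2 fold change was 0.39 without WT 3. The smallest p-values of the list were those of the thioredoxin family genes Erp44 and Tmx1. Erp44, which retains client proteins between ER and Golgi, measured 59.4, 75.3 and 62.0 CPM in WT 1 to WT 3, against 54.5, 46.7 and 37.3 CPM in KO 1 to KO 3 (log2 -0.51, SE 0.19, edgeR adjusted p = 0.385). Tmx1, a membrane-bound oxidoreductase, measured 33.2, 38.5 and 39.7 CPM in WT 1 to WT 3, against 26.7, 29.9 and 28.3 CPM in KO 1 to KO 3 (log2 -0.39, SE 0.15, edgeR adjusted p = 0.401). Every KO library lay below every WT library for both, but neither passed.

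Genes of protein translocation into the ER had a median of -0.18, with 13 of 17 negative. Ssr3, a subunit of the translocon-associated complex, averaged 204 ± 16.8 CPM over WT libraries, against 157 ± 23.7 CPM over KO libraries (SD, n = 3 each), which is -0.38 in log2 (SE 0.18, edgeR adjusted p = 0.430). Sec62 (log2 -0.34, SE 0.21, or -0.19 without WT 2) and Tram1 (log2 -0.29, SE 0.15) did not pass either. Glycoprotein quality control and N-glycosylation had a median of 0.041 over 15 genes. Within it, Prkcsh, the beta subunit of glucosidase II, stood at 0.42 (SE 0.22) and its catalytic partner Ganab at 0.24 (SE 0.22), while Uggt2 stood at -0.34 (SE 0.21) and Stt3b at -0.091 (SE 0.18). Without KO 3 Prkcsh was at 0.20 and Ganab at 0.13, and Ganab was at 0.083 without WT 2 and 0.48 without WT 3. Stt3b ranged from -0.21 without WT 2 to -0.0042 without WT 3.

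Genes of ER-associated degradation, which returns misfolded proteins to the cytosol, had a median of -0.014 over 19 genes. Derl1, a channel component, averaged 99.5 ± 15.7 CPM over WT libraries, against 143 ± 51.6 CPM over KO libraries (SD, n = 3 each), which is 0.52 in log2 (SE 0.25, edgeR adjusted p = 0.441), with KO 3 alone at 202 CPM, and 0.19 without KO 3. The extraction ATPase gene Vcp stood at 0.23 (SE 0.22) and was -0.027 without KO 3. The ubiquitin-conjugating enzyme gene Ube2g2 stood at -0.49 (SE 0.20, edgeR adjusted p = 0.413). Derl3, with 44 counts over the 6 libraries, was left untested by the filter.

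Sensors, processing proteases and partners had a median of 0.079 over 11 genes. Atf6b, the paralog of Atf6, measured 10.9, 11.9 and 15.6 CPM in WT 1 to WT 3, against 16.3, 16.9 and 23.5 CPM in KO 1 to KO 3. Its libraries did not overlap between the groups, whereas those of Atf6 did, and its log2 fold change was 0.55 (SE 0.22, edgeR adjusted p = 0.403), or 0.37 without KO 3. The difference between the paralogs was not tested. Mbtps1, the Golgi protease that makes the first cut in ATF6, stood at 0.26 (SE 0.17, or 0.10 without KO 3), Nfe2l1, an ER-bound transcription factor of brown fat proteostasis, at 0.029 (SE 0.21), and Rtcb, the ligase that joins the spliced Xbp1 mRNA, at -0.25 (SE 0.15). The PERK gene Eif2ak3 had a log2 fold change of 0.079 (SE 0.20), and Ern2 had 0 counts in all 6 libraries, where 3 counts are the limit that a count of 0 allows.

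Genes of the PERK branch had a median of -0.29, with 8 of 10 negative. WT 2 was the highest library for 5 of the 10, against 28.31% of genes with a mean of at least 10 CPM, and lay below the mean of the 6 libraries for 3 (Asns, Sesn2 and Ppp1r15b). This was not particular to the PERK branch, as WT 2 was highest for 11 of 17 genes of translocation into the ER. It was highest for 8 of 24 other chaperones and folding enzymes, 3 of 15 glycoprotein control genes and 3 of 19 degradation genes. Atf4 measured 45.2, 139 and 72.4 CPM in WT 1 to WT 3, against 51.6, 48.4 and 64.5 CPM in KO 1 to KO 3 (log2 -0.64, SE 0.35, edgeR adjusted p = 0.471). Ddit3, which encodes CHOP, measured 23.8, 52.6 and 22.4 CPM in WT 1 to WT 3, against 25.5, 20.6 and 12.5 CPM in KO 1 to KO 3 (log2 -0.75, SE 0.36, edgeR adjusted p = 0.434). Both were highest in WT 2, and without WT 2 the log2 fold changes were -0.10 for Atf4 and -0.24 for Ddit3. With mitochondrial genome genes removed they were -0.63 for Atf4 and -0.74 for Ddit3. Mitochondrial genes took 43.0% of the counts of WT 2, and their part in the levels of Atf4 and Ddit3 was not tested. Eif2s1, the translation factor subunit that PERK phosphorylates, measured 46.4, 68.2 and 45.8 CPM in WT 1 to WT 3, against 39.4, 32.1 and 27.1 CPM in KO 1 to KO 3. All its KO libraries lay below all WT libraries, and KO minus WT was -0.70 in log2 (SE 0.21, with an edgeR adjusted p of 0.350). Ppp1r15b stood at -0.075 (SE 0.21).

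Transcripts that IRE1 is known to cut had a median of 0.15 over 7 genes, with 6 positive. Bloc1s1, the best known of them, averaged 1.88 ± 0.629 CPM over WT libraries, against 1.01 ± 0.186 CPM over KO libraries (SD, n = 3 each), which is -0.87 in log2 (SE 0.41, edgeR adjusted p = 0.428), or -0.58 without WT 2. Pdgfrb, also a pericyte gene, stood at 0.79 (SE 0.32, or 0.32 without KO 3), Pmp22 at 0.092 (SE 0.17) and Sparc at 0.045 (SE 0.18).

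The cytosolic heat shock list, which includes the mitochondrial chaperone genes Hspd1 and Hspe1, had a median log2 fold change of -1.20, with 12 of 12 negative. Hspd1 and Hspe1 stood 0.33 and 0.35 above their mean log2 CPM in WT 3. All 12 were highest in WT 3. In 6 of the 12 every KO library lay below every WT library, against 9.39% of all genes, and in 0 every KO library lay above. Of the 12, 0 were called by edgeR (0.0595% of all genes), 9 had an unadjusted p under 0.05 (11.8% of all genes) and 1 was called by DESeq2 (0.983%), which gave no adjusted p for Hspa1a and Hspa1b. The called gene, Hsp90ab1, averaged 1287 ± 327 CPM over WT libraries, against 717 ± 79.5 CPM over KO libraries (SD, n = 3 each), which is -0.84 in log2 (SE 0.23, edgeR adjusted p = 0.322, DESeq2 adjusted p = 0.0270). Without WT 3 Hsp90ab1 was at -0.62. Hspa8 stood at -1.11 (SE 0.43), or -0.74 without WT 3. Hspa1b stood at -4.83 (SE 1.30), but at -1.30 without WT 3.

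**Figure D5:**
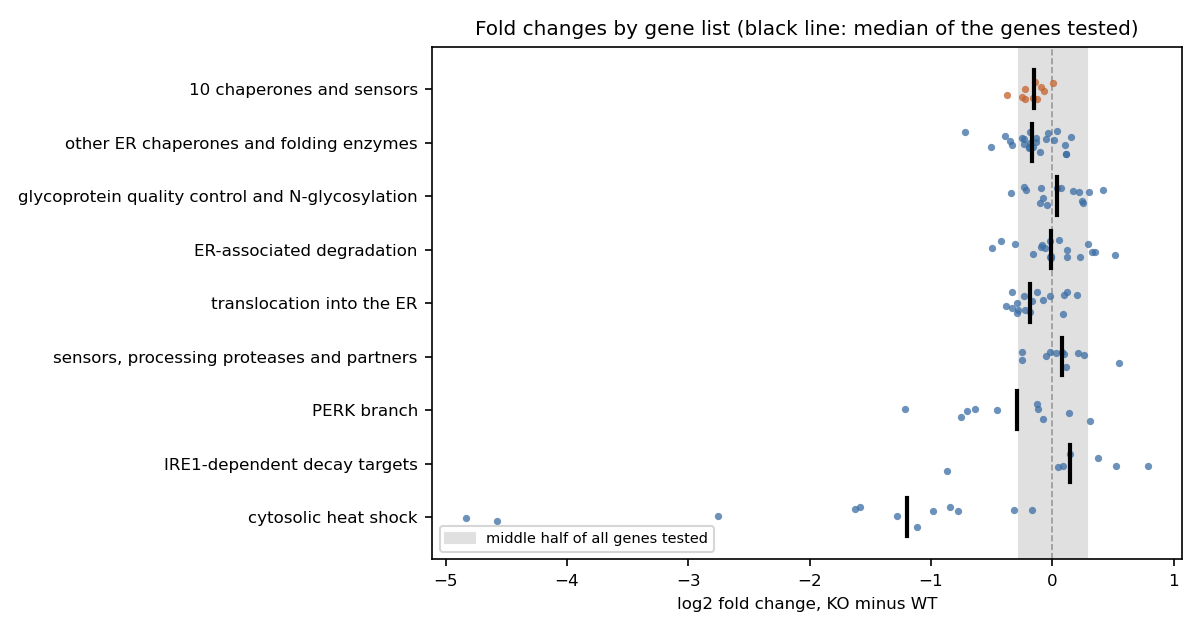
Log2 fold change (KO minus WT) of each tested gene by list, with the list's median as a black line and the range between the quartiles of all genes tested (-0.27 to 0.28) in grey. The 10 chaperones and sensors lie between -0.38 and 0.0070, while heat shock genes reach -4.83 (Hspa1b, at -1.30 without WT 3).

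Markers of other cell types were summed as well. Plasma cell markers were near 0, with Mzb1 at 0 to 0.202 CPM and Jchain at 0.489 to 1.80 CPM. Summed over 10 plasma and B cell markers the range was 10.7 to 14.6 CPM over WT and 17.2 to 23.6 CPM over KO libraries. Macrophage markers summed to 90.6 to 156 CPM over WT and 77.4 to 135 CPM over KO libraries, fibroblast markers to 954 to 1216 and 1203 to 1387 CPM, and endothelial markers to 436 to 678 and 508 to 945 CPM. Their part in the levels of the ER genes was not tested.

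Of the 8023 other genes with a mean of at least 10 CPM, the 5 whose log2 CPM was most like that of Hspa5 over the 6 libraries were Hspa4, Edem2, Cdc42ep4, Ddx24 and Eif4g2, with Pearson r from 0.97 to 0.99. Hspa4, which encodes an HSP110-type cochaperone of the cytosol, measured 83.6, 135 and 144 CPM in WT 1 to WT 3, against 95.9, 120 and 111 CPM in KO 1 to KO 3. Edem2, a mannosidase of ER-associated degradation, measured 16.5, 20.6 and 21.5 CPM in WT 1 to WT 3, against 17.2, 19.1 and 19.1 CPM in KO 1 to KO 3. Both were lowest in WT 1 and highest in WT 3, as Hspa5 was, and neither passed the test (log2 -0.15, SE 0.22, and -0.081, SE 0.18).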

How the data were processed

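The authors deposited a table of whole-number read counts by gene and library, not normalized, of which all 6 columns were used. The submitters' processing notes name HISAT2 (2.1.0) as well as featureCounts (1.6.2), DESeq2, and the mm10 build. No annotation release or strand setting is stated in what was used here. Libraries were polyA-selected with a stranded kit, per the labels. Symbols were matched by identifier without version (53620 of 53715), and positions and exon lengths came from GENCODE M21 on the same build. Library totals ran from 18034204 to 33617762, and a count of 0 allows up to 3 counts, 0.0892 to 0.166 CPM, as counting error alone.

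filterByExpr (minimum count 10, total 15) left 15123 genes with 99.9% of the counts. The edgeR 4.0.16 quasi-likelihood test compared the genotypes (TMM factors, no other term, R 4.3.3), with Benjamini-Hochberg adjustment over these genes. Intervals are 95% intervals from fitted standard errors, and log2 CPM used a prior count of 2. The design text speaks of individuals, so libraries were taken as separate mice.

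The members and lists were chosen with earlier results of these data known. All 10 genes were named whatever their values. Each list contributed the genes past the threshold or, where there were 0, its 2 most abundant and its 2 of smallest p, and the 5 genes most like Hspa5 were added. Eif2ak3, Ern2, Derl3, Ppp1r15a, Atf3, Asns, Sesn2, Hsp90aa1, Hsph1, Hspa1a, Hspd1, Hspe1, the named markers and the motifs were chosen after values were seen. The fit was tested on simulated data. Alternatives were DESeq2 1.42.0, its size factors within edgeR, limma-voom (limma 3.58.1), no filter, a minimum count of 50, a replicate block, removal of mitochondrial genome genes, and removal of libraries. Python 3.11.15, pandas 2.3.3 and matplotlib 3.10.9 made tables and figures.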

Additional observations from a re-analysis of the deposited data

How the results depend on the processing

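Of the 10 chaperone and sensor genes, 0 passed under any of the 14 alternatives. Among all tested genes 3 were called higher in KO and 6 called lower. These counts were 76 and 81 with DESeq2, 330 and 333 with no filter, 14 and 13 without both WT 2 and KO 3, and 0 to 9 and 0 to 9 with 1 library left out. The count of higher genes was 0 without KO 1 and without KO 2, 1 without KO 3 and without WT 3, and 9 without WT 2; that of lower genes was 1 without KO 1 and 0 without KO 2. With no filter edgeR's prior degrees of freedom were infinite, and 3 genes of the 7 ER lists (Eif2s1, Ddit3 and Pdgfrb) and 10 heat shock genes were called. DESeq2 called 1 heat shock gene.

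With the replicate number as a block, 1 gene was higher in KO, 0 of the 10 were called and Hspa1b was at -2.93. Correlations of deviations between same-numbered libraries were -0.114, 0.102 and 0.091, so the numbers were not taken to pair the mice.

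Some log2 fold changes near 0 changed sign, and the cause was not tested. limma-voom gave -0.015 for Ern1 and 0.0047 for Serpinh1. Without both WT 2 and KO 3 the values were 0.069 for Calr, -0.21 for Ern1, -0.43 for Serpinh1 (sign kept), -0.023 for Ganab, -0.093 for Vcp, -0.053 for Sparc and -0.075 for Pmp22. With 1 library left out they ran from -0.24 to 0.0082 (Pdia6), -0.31 to 0.041 (Calr), -0.13 to 0.019 (Canx), -0.40 to 0.012 (Dnajb9), -0.37 to 0.025 (Xbp1), -0.13 to 0.11 (Ern1), -0.31 to 0.39 (Serpinh1), -0.027 to 0.41 (Vcp), -0.11 to 0.16 (Nfe2l1), -0.21 to 0.089 (Ppp1r15b), -0.0076 to 0.12 (Sparc) and -0.0034 to 0.23 (Pmp22). Those of Ganab remained positive (0.083 to 0.48). Without both WT 2 and KO 3 other named genes kept their sign, with Ddit3 at -0.0026, Atf4 at -0.23, Eif2s1 at -0.36, Pdgfrb at 0.18, Prkcsh at 0.10, Derl1 at 0.064, Sec62 at -0.083, Atf6b at 0.32, Mbtps1 at 0.11, Erp44 at -0.26, Ssr3 at -0.20, Rtcb at -0.13, Bloc1s1 at -0.45 and Atf6 at -0.31.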
